A study of Mus musculus with 11 samples.

Results

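The rodent repeat miRNAs miR-297, miR-466, miR-467 and miR-669 were followed across all libraries of a mouse liver series. Members were all mature names in the deposited count table that start with one of these 4 stems, whatever letter or arm follows. This gave 80 of 1281 names: 6 of miR-297, 31 of miR-466, 13 of miR-467 and 30 of miR-669. Of the 80, 60 had a read in at least 1 library and 20 had none.

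MicroRNAs (miRNAs) are short RNAs that guide Argonaute proteins to messenger RNAs, mainly through the seed, the bases near their 5′ end. Either side of the hairpin precursor, called the 5p and the 3p arm, can become the mature miRNA. Most miRNAs of these stems come from a long tandem array in an intron of Sfmbt2, which encodes a Polycomb group protein and is expressed from the paternal allele in early embryos and placenta. The array arose in rodents, is best known from placenta and embryonic stem cells, and its hairpins carry runs of alternating CA or GU.

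The series asked which liver miRNAs depend on p53 when telomeres are short. All mice were telomerase knockouts on a C57/B6 background, labelled G4. One group had intact p53 (G4 p53+/+, 5 libraries, numbered 1 to 5) and the other lacked it (G4 p53-/-, 6 libraries, numbered 6, 7, 8, 10, 11 and 12). Age and sex are not in the labels used here. Nor do these say whether libraries came from separate animals, so the spread behind each p-value may be technical. No comparison with long-telomere mice was made.

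Total miRNA counts, each name counted once, ran from 1905609 to 6682492 per library. p53+/+ libraries 1 and 2 and p53-/- library 11 were the shallowest, at 2202415 counts or fewer, and the other 8 had 4453903 or more. Levels are given in CPM, a name's count divided by the library's total count and scaled to a common base, so that libraries of unequal depth can be compared. A count of 0 allows up to 3 counts, or between 0.449 and 1.57 CPM depending on the library, and this limit covers counting error only. Liver identity was clear in every library: the hepatocyte list (both arms of miR-122 and miR-192-5p) summed to between 556544 and 616755 CPM in p53+/+ libraries and between 573089 and 671839 CPM in p53-/- libraries. Of the 22 miRNAs in the list for embryonic stem cells and early embryo (miR-290 to miR-295 and miR-302), 15 had no read and none exceeded 12 reads in a library. That list summed to between 1.09 and 4.20 CPM in p53+/+ libraries and between 1.51 and 6.10 CPM in p53-/- libraries. Pancreas miRNAs (miR-217-5p, miR-216a-5p, miR-216b-5p and miR-375-3p) summed to between 3.05 and 387 CPM in p53+/+ libraries and between 6.01 and 25.4 CPM in p53-/- libraries. The erythroid, leukocyte and endothelial lists overlapped between the groups. The part of these cell types in the members' levels was not tested.

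Mature sequences show the repeat character of the group. RefSeq's table (GRCm38.p6) matched 8 of the 80 names, all with hairpins outside the Sfmbt2 array, and they are printed 5′ to 3′ with the seed, bases 2 to 8, in capitals. The set is shown because it covers both kinds of repeat, CA-rich and GU-rich.
miR-466i-3p: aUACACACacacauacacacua
miR-466q: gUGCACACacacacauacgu
miR-467f: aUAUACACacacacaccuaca
miR-467g: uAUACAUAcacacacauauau
miR-466j: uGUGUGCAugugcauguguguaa
miR-466k: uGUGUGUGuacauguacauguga
miR-467h: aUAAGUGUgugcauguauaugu
miR-669n: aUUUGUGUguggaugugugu
The first 4 contain ACACAC and the other 4 contain GUGUGU, searched on the RNA strand as printed. Among the 1671 other mature miRNAs of the table, 0.419% contained ACACAC and 0.778% contained GUGUGU. These motifs are part of the family's repeat character, so their presence is a description. None of the 8 shared a seed with another of them, so the printed miR-466 names differ in seed, as do the printed miR-467 names. Seeds of names in the array were not compared. One seed, that of miR-467h, also belongs to miR-668-5p, which had 0 reads.

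Hairpin positions came from GENCODE M21 on GRCm38. The table listed 81 hairpins for the 80 names, 80 of which were matched, and mir-466a was not. Of the matched hairpins, 70 lay inside Sfmbt2 (chr2:10370510-10595253, plus strand) and on its strand. They filled 51617 bases, chr2:10466663-10518279, within a single intron at chr2:10461473-10523944 that no annotated Sfmbt2 exon interrupts. By stem they were 5 miR-297, 22 miR-466, 14 miR-467 and 29 miR-669 hairpins, each 73 to 127 bases long. The order miR-467, miR-466, miR-669 recurred 11 times along the array. The 10 hairpins of miR-467a were spaced by a median of 2462 bases (range 2413 to 4880), and neighbouring hairpins of any stem started a median of 300 bases apart.

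**Figure D1:**
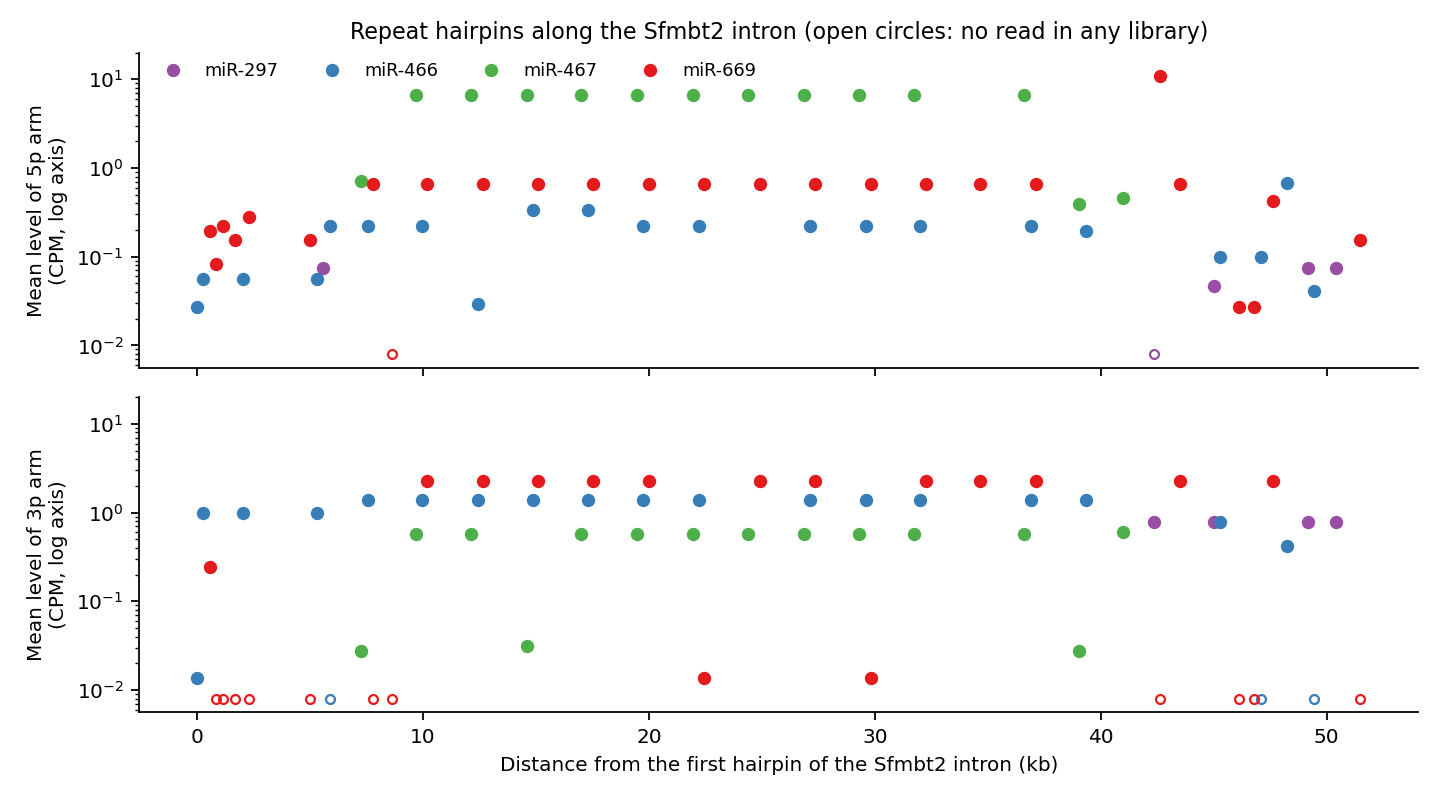
Hairpins of the Sfmbt2 intron array by distance from the first hairpin (x axis, kb), coloured by stem, with the mean CPM over the 11 libraries (log axis) of the 5p arm (upper panel) and the 3p arm (lower panel). Open circles mark arms with no read. A name with several hairpins is drawn at each of them with its highest copy's level, so the level is that of the name and not of the position; the highest in the array is miR-669c-5p at 10.8 CPM.

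Another 10 hairpins lay outside Sfmbt2. The one that matters most here is Mir466i at chr13:17747473-17747593 on the plus strand, opposite an intron of Cdk13, which encodes a cyclin-dependent kinase. Mir466f-4 is also on chromosome 13, Mir466k, Mir466q and Mir669n are on chromosome 3, Mir467g on 5, Mir297-1 on 7, Mir467h on 9, Mir466j on 10 and Mir467f on 11. Mir466q lies in Tnik on its strand, while Mir467f, Mir467g and Mir669n lie opposite Fxr2, Grk4 and Slc30a7. Of the names, 66 had hairpins in the array only (49 with reads), 9 had hairpins elsewhere only (7 with reads), 3 had both, and 2, the arms of miR-466a, were unplaced.

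The family was a trace component of liver miRNA. Its 3688 reads, names with the same counts included, were 0.00692% of all miRNA counts. Of the 60 detected names, 12 had reads in every library, 12 had reads in 1 library only, and 17 reached 10 reads in any library. The mean over the 11 libraries was at least 1 CPM for 11 names and under 1 CPM for 49. The 4 most abundant names, with miR-467a-5p and miR-467b-5p among them under the same counts, held 64.6% of the family's reads. miR-466i-5p alone held 30.5%, so the most abundant member was one whose listed hairpin lies outside the Sfmbt2 array. With names of identical counts taken once, it held 1123 of 2792 reads. Names were placed by their listed hairpins, here and below, and the loci that the reads came from were not tested.

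Hairpin copies of a name did not always carry the same count: of 18 detected names with several rows, 7 had rows that differed, and the lowest copy of miR-466b-3p held 40 of 71 reads and that of miR-466f-3p 17 of 46. Many names could not be told apart by their counts. Among detected names, 27 fell into 11 sets with the same count in all 11 libraries, leaving 44 distinct patterns. The largest set was miR-466a-3p, miR-466b-3p, miR-466c-3p, miR-466e-3p and miR-466p-3p, with 71 reads under each name. Others were miR-467a-5p with miR-467b-5p (350 reads), miR-669a-3p with miR-669o-3p (106 reads) and the 3p arms of miR-297a, miR-297b and miR-297c (45 reads). Values for such a set are given once, as those of the set, and sums over all names count its reads more than once.

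miR-466i-5p was the most abundant member, ranking 184 of 811 detected miRNAs by mean CPM. In p53+/+ libraries 1 to 5 it was at 47.3, 66.6, 13.1, 10.4 and 19.5 CPM, and in p53-/- libraries it ran from 16.9 through a median of 19.7 to 39.0 CPM. Libraries 1, 2 and 11, the 3 shallowest, were the highest of all, and the groups overlapped. Mean levels were 31.4 ± 24.6 CPM (SD, n = 5) with p53 and 22.6 ± 8.33 CPM (SD, n = 6) without it. edgeR's quasi-likelihood test gave a log2 fold change, p53-/- over p53+/+, of -0.36 with an SE of 0.39, a 95% interval from -1.21 to 0.49 and an adjusted p of 0.672, and an exact two-sided permutation test of log2 CPM gave p = 0.753.

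The read counts of miR-466i-5p hardly followed depth. They were 93, 127, 76, 67 and 87 in p53+/+ libraries 1 to 5, and ran from 86 to 137 in p53-/- libraries. The highest count was 2.04 times the lowest, while the library totals differed 3.51-fold. Its mean was 51.0 CPM in the 3 shallowest libraries, and the highest value among the other 8 was 22.7 CPM. The same ordering, all 3 shallowest libraries above all others in CPM, occurred in 18 of the 247 miRNAs with a mean count of at least 50 (7.29%). The direction of the genotype difference rested on p53+/+ libraries 1 and 2. Without p53+/+ library 2 the log2 fold change was 0.01, and without libraries 1 and 2 it was 0.65. Without all 3 shallowest libraries it was 0.50, and without p53-/- library 11 alone it was -0.44. The adjusted p was at least 0.385 in edgeR for each. What sets the shallow libraries apart was not tested. The table also listed this name on 2 rows of the one hairpin, whose counts differed by between 0.885% (library 8) and 11.8% (library 1).

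**Figure D2:**
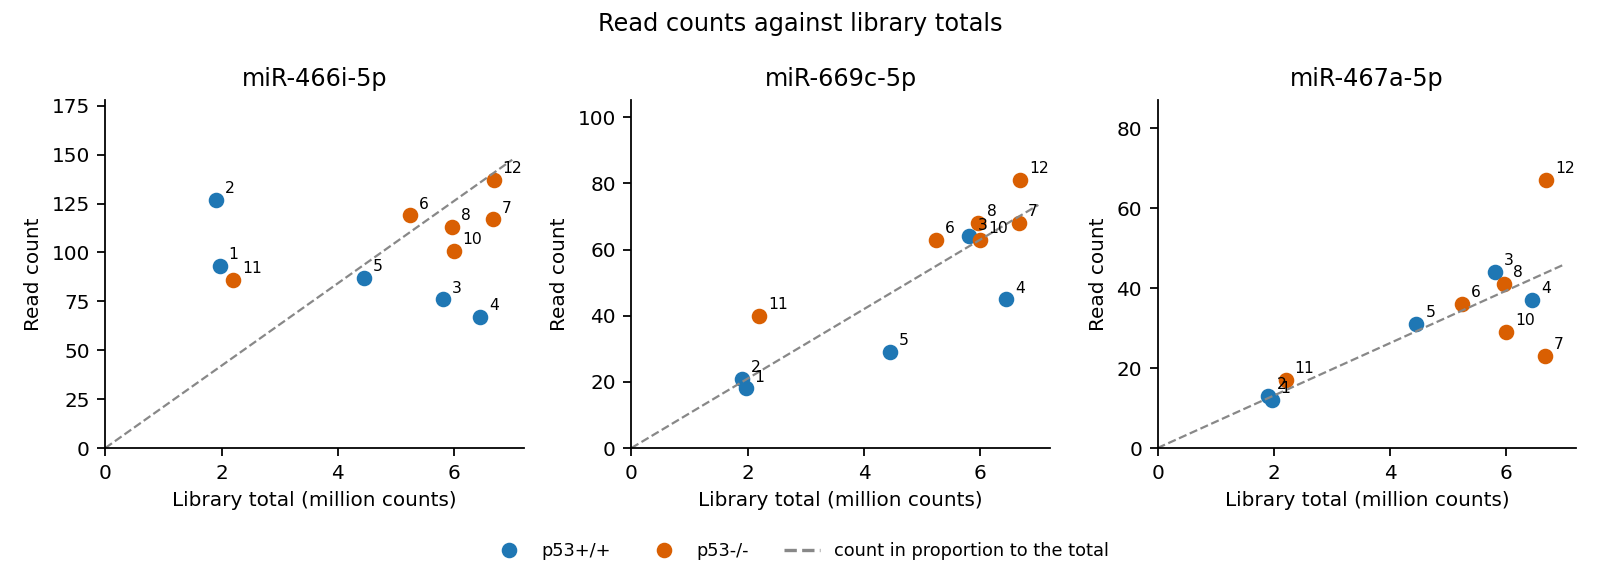
Read counts of miR-466i-5p, miR-669c-5p and miR-467a-5p (y axes) against the library's total miRNA count (x axis), 1 numbered point per library, coloured by genotype. The dashed line is a count in proportion to the total. miR-466i-5p stays between 67 and 137 reads from the shallowest to the deepest library, while miR-669c-5p runs from 18 to 81 reads.

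miR-669c-5p was the most abundant product of the Sfmbt2 array. Its hairpin lies at chr2:10509296-10509404, plus strand. It was at 9.16, 11.0, 11.0, 6.98 and 6.51 CPM in p53+/+ libraries 1 to 5, and ran from 10.2 through a median of 11.7 to 18.2 CPM in p53-/- libraries. All 6 p53-/- libraries lay above the p53+/+ median of 9.16 CPM, but the ranges overlapped, since p53+/+ libraries 2 and 3 exceeded the lowest p53-/- libraries. The mean was 8.94 ± 2.15 CPM (SD, n = 5) against 12.4 ± 2.93 CPM (SD, n = 6). In edgeR the log2 fold change of 0.52 (SE 0.20; 0.09 to 0.95) did not pass, with an unadjusted p of 0.0207 and an adjusted p of 0.190. An exact two-sided permutation test of log2 CPM gave a difference of 0.47, p = 0.0325 with a prior of 0.5 counts and p = 0.0628 with a prior of 2, before adjustment for the 9 patterns so tested. Unlike miR-466i-5p, it kept its sign in all 22 refits, from 0.43 to 0.61, with adjusted p from 0.169 to 0.499.

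miR-467a-5p and miR-467b-5p had the same counts, and were the steadiest of the abundant members in p53+/+ livers. The set was at 6.11, 6.82, 7.58, 5.74 and 6.96 CPM in p53+/+ libraries 1 to 5, and ran from 3.45 through a median of 6.87 to 10.0 CPM in p53-/- libraries. The p53+/+ values lay entirely inside the p53-/- range, with p53-/- library 7 lowest and library 12 highest. Mean levels of 6.64 ± 0.727 (SD, n = 5) and 6.63 ± 2.29 CPM (SD, n = 6) gave a log2 fold change of 0.03 in edgeR, with an interval from -0.54 to 0.60 and an adjusted p of 0.973.

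miR-669a-3p and miR-669o-3p formed the next set. Its levels were 1.53, 6.82, 0.861, 0.775 and 0.674 CPM in p53+/+ libraries 1 to 5, and ran from 1.80 through a median of 2.32 to 3.17 CPM in p53-/- libraries. p53+/+ library 2 was above every other library, and the remaining p53+/+ libraries were below every p53-/- library. edgeR put the log2 fold change at 0.54 (SE 0.53; -0.60 to 1.68) with an adjusted p of 0.627, and at 1.38 without p53+/+ library 2, with an adjusted p of 0.200. That library held 13 reads of the set and p53+/+ libraries 1, 3, 4 and 5 held 3 to 5 each.

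The 5-name set of miR-466 3p arms was at 0.509, 0.525, 2.58, 0.775 and 0.225 CPM in p53+/+ libraries 1 to 5, and ran from 0.898 through a median of 1.35 to 4.54 CPM in p53-/- libraries. The groups overlapped, with p53+/+ library 3 and p53-/- library 11 high. The set was too low for the filter, and the exact permutation test gave p = 0.160 with a prior of 0.5 counts and p = 0.377 with a prior of 2. The 3-name set of miR-297 3p arms was at 0, 1.05, 0.172, 0.155 and 0.449 CPM in p53+/+ libraries, and ran from 0.381 through a median of 1.13 to 1.84 CPM in p53-/- libraries. Its ranges overlapped as well, and its difference of 1.41 in mean log2 CPM had an exact permutation p = 0.0498 with a prior of 0.5 counts and p = 0.134 with a prior of 2.

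**Figure D3:**
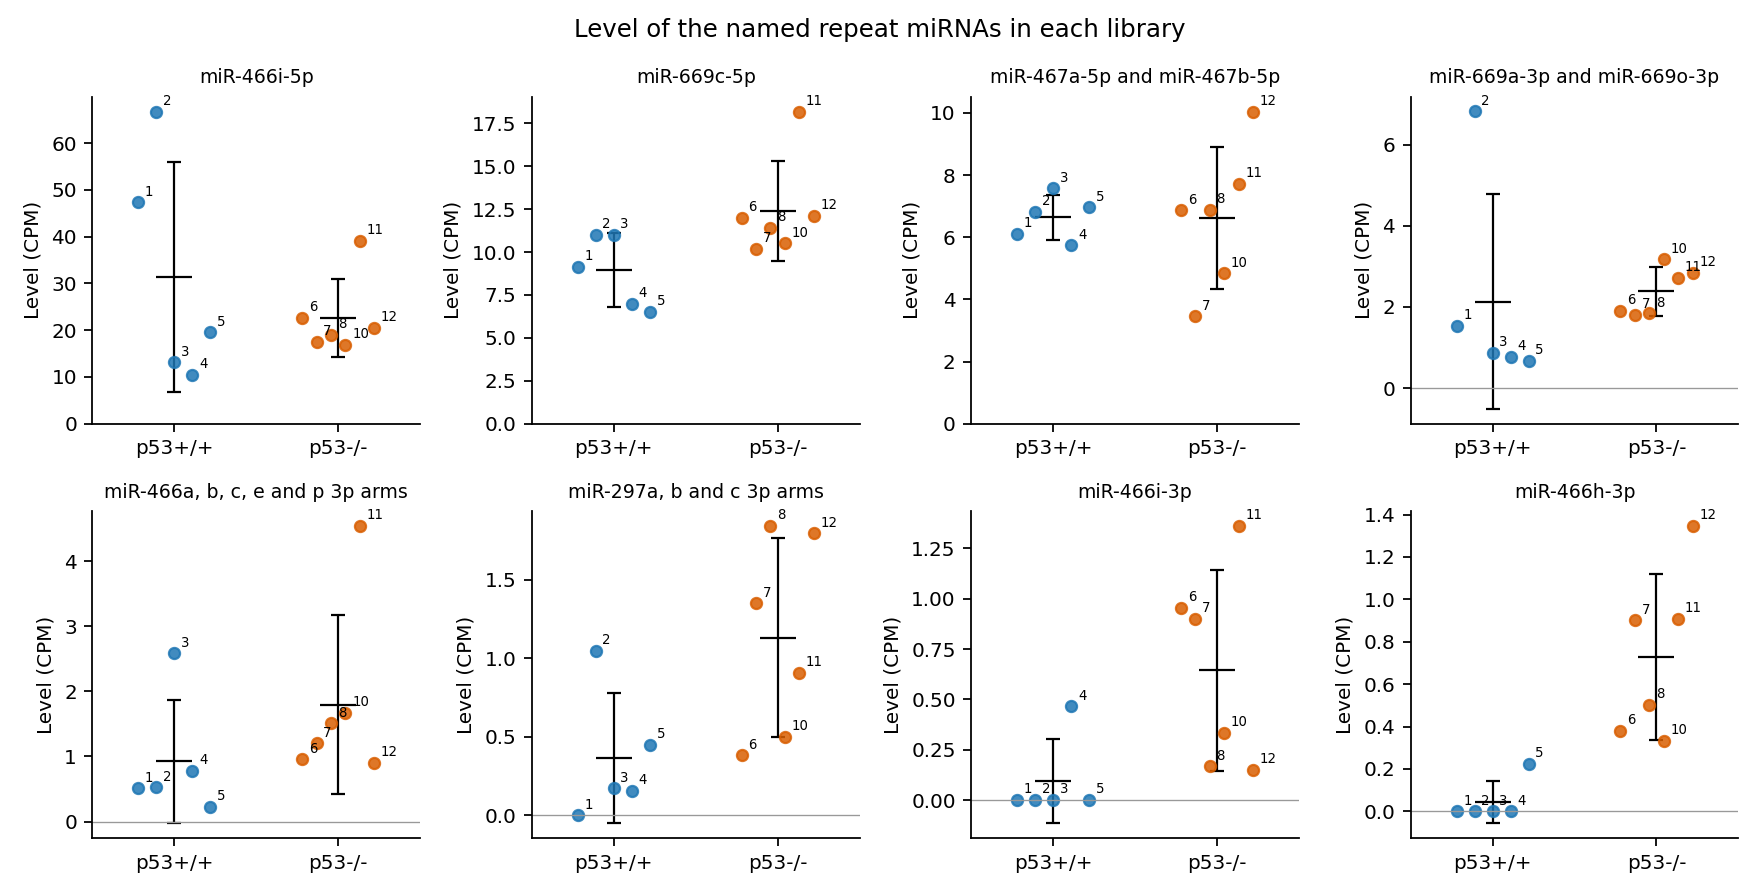
CPM of the named members in each library (points, with library numbers) by genotype, with bars for mean ± SD. Groups overlap in every panel but that of miR-466h-3p, and miR-669c-5p has all 6 p53-/- libraries above the p53+/+ median of 9.16 CPM.

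The question of p53 dependence was put to the whole table with edgeR. Of 388 miRNAs that passed the filter on low counts, 1 changed at an adjusted p under 0.05 (0.258%), and it was no member. Only 6 of the 80 members passed that filter: miR-466i-5p, miR-669c-5p, and the sets miR-467a-5p with miR-467b-5p and miR-669a-3p with miR-669o-3p. None of the 6 changed. At an unadjusted p under 0.05, 1 of 6 was higher in p53-/- livers, against 8.25% of all tested miRNAs, and 0 were lower, against 9.02%. The log2 fold change was above 0 for 5 of 6, against 49.0% of all, with a median of 0.28 against -0.01 over all miRNAs. Over the 19 fits in which 6 members were tested, 3 to 5 of them were above 0, with 3 under library totals only and 4 with limma-voom, since the miR-467a-5p and miR-467b-5p pair lay near 0. With 4 distinct count patterns behind these 6 names, that is a thin basis. DESeq2 called 17 of the 305 miRNAs to which it gave an adjusted p (5.57%), and 0 of the 4 members among them. At an unadjusted p under 0.05, DESeq2 had 5 of 60 members higher and 0 lower, against 5.08% and 5.95% of all. Those 5 include the 3p arms of miR-297a, miR-297b and miR-297c, which have the same counts. limma-voom called 0 members, and had 1 of 6 higher and 0 lower at an unadjusted p under 0.05, against 7.22% and 7.47% of all.

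Without the filter, all 60 detected members entered edgeR's test and 0 were called. At an unadjusted p under 0.05, 5 were higher in p53-/- livers and 0 lower, against 6.04% and 5.8% of the 811 detected miRNAs. Of the 60, 42 had a log2 fold change above 0, against 51.8% of all. In plain mean CPM, 41 of 60 were higher in p53-/- livers, against 50.7% of the 811 detected miRNAs. Most of these names rest on a few reads, and 27 of them share counts with another name. The numbers of names above 0 or higher therefore include repeats of the same reads.

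Both miR-466h-3p and miR-466i-3p were read in all 6 p53-/- libraries and in 1 p53+/+ library. That pattern was found in 2 of 811 detected miRNAs (0.247%), both members, and the opposite pattern in 0. The opposite pattern requires reads in p53+/+ libraries 1 and 2, which are among the shallowest, and both members had 0 reads there. The numbers for the 2 patterns are therefore not on equal terms for rare miRNAs. miR-466h-3p, named here after its values were seen, comes from the Sfmbt2 array, had 0, 0, 0, 0 and 1 reads in p53+/+ libraries 1 to 5, and had 2 to 9 in p53-/- libraries. In CPM it was at 0 in p53+/+ libraries 1 to 4 and at 0.225 in library 5, and ran from 0.334 to 1.35 in p53-/- libraries, so the ranges did not overlap. It was 1 of 2 miRNAs with that separation upward among 811 (0.247%), while 7 were separated downward (0.863%), 0 of them members. Over groups it had 1 read in 20581141 counts against 24 in 32748314. In edgeR without the filter its log2 fold change was 3.29, with an adjusted p of 0.206. A count of 0 allows up to 1.53 and 1.57 CPM in p53+/+ libraries 1 and 2, above all p53-/- values, so absence there was not shown. In p53+/+ libraries 3 and 4 the limits of 0.517 and 0.465 CPM lay above p53-/- libraries 6 and 10 (0.381 and 0.334). Library 8 (0.503) lay between these limits, and libraries 7, 11 and 12 lay above both.

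miR-466i-3p, the minor arm of the chromosome 13 hairpin, had reads in p53+/+ library 4 only (3 reads, 0.465 CPM) and ran from 0.150 through a median of 0.617 to 1.36 CPM in p53-/- libraries. Its counts of 0 in the other p53+/+ libraries again allow up to 3 counts each. The ranges overlapped, and the exact permutation test gave p = 0.0606 with a prior of 0.5 counts (difference of 1.51 in mean log2 CPM) and p = 0.403 with a prior of 2 (0.45).

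The best covered hairpins used mainly 1 arm. miR-669c had 560 reads of the 5p and 0 of the 3p arm, which allows a 3p share of up to 0.536%. For miR-466i, 98.2% of 1144 reads were 5p (Wilson 95% interval 97.2 to 98.8%), and by library the share was 95.1% or more, with no 3p read in p53+/+ libraries 1, 2, 3 and 5. For miR-467a 90.9% of 385 reads were 5p (87.6 to 93.4%), and by library the share ran from 76.7% in p53-/- library 7 to 100%. miR-669a went the other way when pooled, with 27.4% of 146 reads on the 5p arm (20.8 to 35.1%). By library its 5p share ran from 0% in p53+/+ library 2 to 54.5% in p53+/+ libraries 3 and 4, on few reads. The intervals pool the reads of all libraries and leave out the spread between them. miR-466a had 0 reads of the 5p and 71 of the 3p arm. miR-466h had 18 reads of the 5p and 1 of the 3p arm over the p53+/+ libraries, and 20 and 24 over the p53-/- libraries, where the 5p reads were 0 of 6 in library 7 and 7 of 9 in library 10. These few reads belong to the 3p arm singled out after its values were seen, and the difference in arm share was not tested. miR-467b-3p, by contrast with its 350 reads of the 5p arm, had 2 reads, both in p53+/+ library 3. Counting sets once, 5p against 3p reads were 6 and 45 for miR-297, 1215 and 200 for miR-466, 426 and 76 for miR-467, and 676 and 117 for miR-669. Of these 5p reads, miR-466i-5p held 1123 of the 1215 and miR-669c-5p 560 of the 676. The set of miR-467a-5p and miR-467b-5p held 350 of the 426. The 5p excess of these stems therefore rests on those names and does not describe their other hairpins. Arm shares of names in a set rest on reads that several hairpins may share. The share of miR-466i takes all reads of both arms as those of its listed hairpin, which was not tested.

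Summed over all names, the family was at 82.9, 125.4, 65.1, 42.5 and 50.5 CPM in p53+/+ libraries 1 to 5, and ran from 60.8 through a median of 70.3 to 119.0 CPM in p53-/- libraries. The groups overlapped over most of their range, and libraries 2 and 11 were highest. Means of 73.3 ± 33.0 (SD, n = 5) and 78.3 ± 21.6 CPM (SD, n = 6) differed by less than the spread between libraries. Counted once per set they were 59.3 ± 31.0 and 58.4 ± 15.2 CPM. Names encoded in the Sfmbt2 array alone summed to 34.6, 57.7, 49.4, 30.9 and 30.1 CPM in p53+/+ libraries, and from 40.96 through a median of 48.2 to 72.2 CPM in p53-/- libraries. Those means were 40.5 ± 12.4 and 52.4 ± 12.2 CPM, again with overlapping ranges. Names encoded elsewhere alone summed to 31.7 ± 24.5 and 23.7 ± 8.88 CPM, nearly all of it miR-466i-5p. These sums are a description and carry no p.

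**Figure D4:**
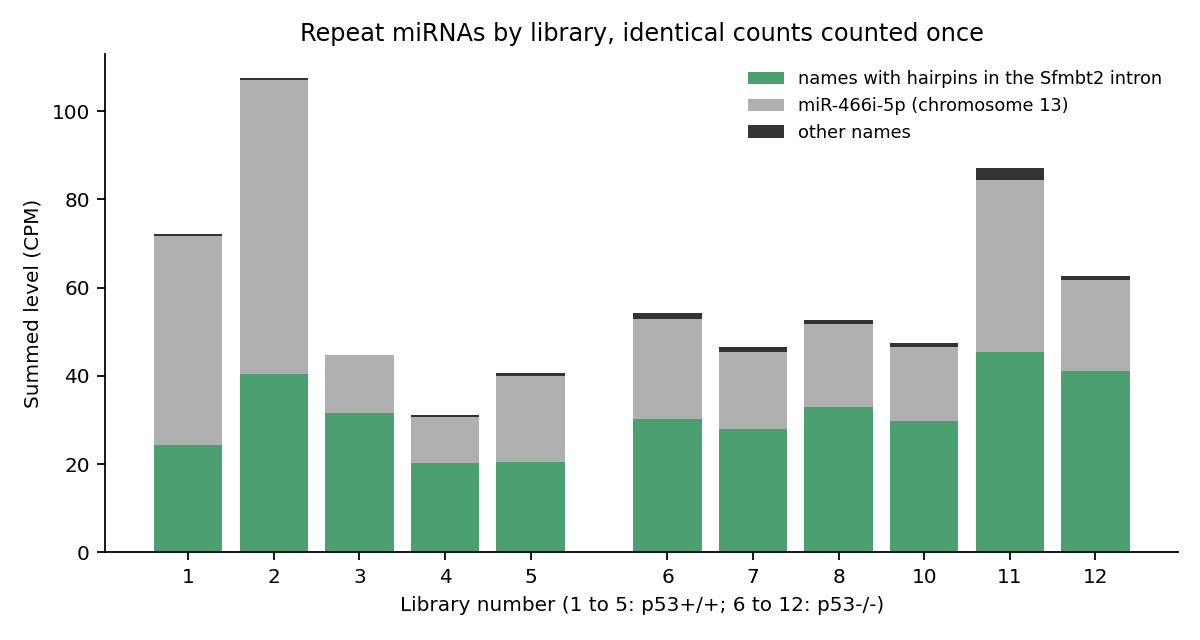
Summed CPM per library, stacked by Sfmbt2-array names, miR-466i-5p and other names, with names of identical counts added once. Library 2 (108 CPM) and library 11 (87.2 CPM) are highest, and the miR-466i-5p part is widest in libraries 1, 2 and 11.

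By stem, miR-466 gave the largest sum, 40.0 ± 23.8 CPM in p53+/+ and 37.9 ± 16.4 CPM in p53-/- libraries. miR-467 was at 15.9 ± 2.79 and 16.4 ± 5.02 CPM, and miR-669 at 16.1 ± 6.94 and 20.5 ± 4.10 CPM. miR-297 was the smallest, at 1.27 ± 1.43 and 3.47 ± 2.00 CPM, and its 3p set, counted under 3 names, makes up most of that. With sets counted once, the p53+/+ and p53-/- means were 36.1 and 30.3 CPM for miR-466, 9.25 and 9.69 for miR-467, 13.4 and 17.4 for miR-669, and 0.539 and 1.21 for miR-297. The groups overlapped for each of the 4 stems.

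More of the names were read in p53-/- libraries, and the gap was smaller at equal depth. A mean of 29.6 ± 3.36 names (26 to 35) had a read in p53+/+ libraries and 38.5 ± 4.59 (33 to 45) in p53-/- libraries. When every library was thinned by formula to the smallest total, the expected numbers were 23.7 ± 4.47 (19.1 to 30.0) and 28.6 ± 3.30 (23.8 to 33.1), with overlapping ranges. Names with the same counts are each counted, both as read and as thinned. Over all miRNAs, not thinned, 535 to 616 names had a read in p53+/+ libraries and 559 to 637 in p53-/- libraries. Of the 60 detected members 13 were read only in p53-/- and 2 only in p53+/+ libraries, against 81 and 37 of all 811 detected miRNAs. Several of the 13 share their counts, such as miR-466j, miR-466m-5p and miR-669m-5p with 2 reads in p53-/- library 12. The same few reads therefore enter that number more than once. The p53-/- group has 1 library more and a higher summed total, and its part in these counts was not tested.

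**Figure D5:**
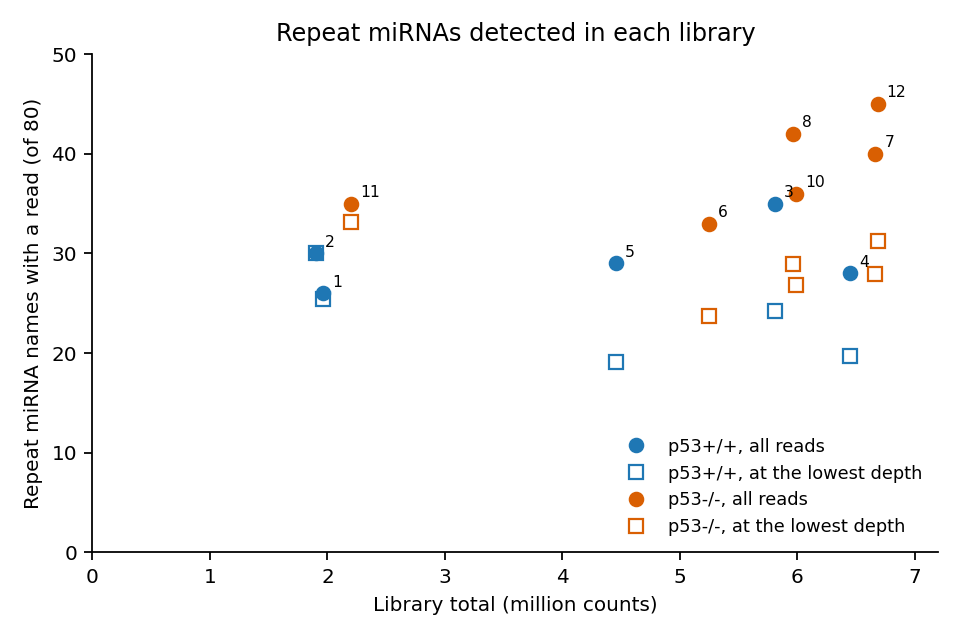
Members with at least 1 read (y axis) against the library's total count (x axis), coloured by genotype: filled points as counted, with library numbers, and open squares after thinning to the smallest library total. As counted, p53+/+ libraries hold 26 to 35 names and p53-/- libraries 33 to 45; after thinning they hold 19.1 to 30.0 and 23.8 to 33.1.

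Other mouse miRNAs with GU or CA repeats, from a list outside the 4 stems, gave no call either. miR-574-5p, a GU-rich miRNA from an intron of Fam114a1, averaged 97.7 ± 14.9 CPM (SD, n = 5) against 150.0 ± 50.5 CPM (SD, n = 6) without p53, with a log2 fold change of 0.62 and an adjusted p of 0.174 in edgeR. Its other arm, miR-574-3p, was at 0.54 (adjusted p = 0.304), and miR-3082-3p at -0.64 (adjusted p = 0.549). miR-1187 had 30 reads and miR-3082-5p 16 over all libraries, and miR-568 and miR-1192 had 0. Of the 7 names in the list, 3 were tested and 0 passed.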

How the data were processed

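Small RNA from 50 mg of liver per sample was extracted with Trizol, freed of DNA, purified on a column and prepared with a kit from Illumina, per the labels' protocols. The deposited counts are reads per mature name and hairpin. The submitters' processing notes name GRCm38 and limma; the read aligner is not given in the sources used here, nor is the counter. The CPM that the authors deposited equal the count over the column total to within 0.005; these were checked but not used. CPM here are computed from totals with each name counted once, at its highest count over hairpins; the deposited column totals, which repeat names, are 1.08 to 1.12 times larger. Library files and the series table differed in 0 values.

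The members and lists were chosen with earlier results of these data known. Named members were the 10 of highest mean CPM, any called, the 3 highest and lowest tested fold changes, the top name of each stem, names whose copies differed by over 5% at a mean count of at least 50, and both arms of the 4 most abundant hairpins; miR-466h-3p was added after its values were seen. edgeR 4.0.16 (R 4.3.3, TMM, filterByExpr, quasi-likelihood F-test, Benjamini-Hochberg over all tested, threshold 0.05) was fitted on the whole table. It was also run on simulated data with larger fold changes than those of the tested members. That run does not bear on effects of the members' size. DESeq2 1.42.0, limma 3.58.1 (voom), other scalings, no filter, hairpin sums and omitted libraries were alternatives. Permutation tests used NumPy 2.4.6 over all 462 splits of log2 CPM, and SciPy 1.17.1 gave the Wilson intervals and the thinned numbers. Groups of 5 and 6 limit precision.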

Additional observations from a re-analysis of the deposited data

Results flagged for a closer look

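Each of 34 groups of libraries (a named member or a stem's sum within 1 genotype) was searched for a library far from the others. The cut-offs flag about 1 in 20 such groups by chance if values are normally distributed, which low or skewed counts need not be. Here 9 were found, several of them from the same library or overlapping sums, and whether that exceeds chance was not tested. In p53-/- library 11, the shallowest of its group, miR-466i-5p was at 39.0 CPM where the other 5 ran from 16.9 to 22.7, miR-669c-5p at 18.2 where they ran from 10.2 to 12.1, and the 5-name set of miR-466 3p arms at 4.54 where they ran from 0.898 to 1.67. The summed level of miR-466 names was 71.3 CPM in that library against 29.0 to 34.1, and that of names encoded outside Sfmbt2 was 41.3 against 17.9 to 23.8. Among p53+/+ libraries, library 2 held 6.82 CPM of miR-669a-3p and miR-669o-3p against 0.674 to 1.53 in the rest, and library 3 held 2.58 CPM of the miR-466 3p set against 0.225 to 0.775. The remaining 2 rest on 2 or 3 reads: miR-466i-3p was at 0.465 CPM in p53+/+ library 4 and miR-467b-3p at 0.344 CPM in p53+/+ library 3, with 0 in the other p53+/+ libraries. A group with reads in 1 library only is flagged whatever the count.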

How the results depend on the processing

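No paired analysis was possible because replicate numbers run on across both genotypes and none is shared. No member was called under any of the 22 alternatives. miR-669c-5p and the miR-669a-3p set stayed above 0 in all of them. With libraries 10, 11 and 12 as the only p53-/- libraries, edgeR put miR-669c-5p at 0.51, with an adjusted p of 0.499. The log2 fold change of miR-466i-5p, -0.36, turned to 0.00602 with limma-voom, 0.65 without p53+/+ libraries 1 and 2, and 0.50 without the 3 shallowest libraries (the last chosen after seeing the data). Leaving out 1 library at a time it ran from -0.62 to 0.00547. That of the miR-467a-5p and miR-467b-5p set, 0.03, was -0.0027 with DESeq2, -0.065 with voom, -0.011 with library totals only, -0.0078 (miR-467a-5p) and -0.0131 (miR-467b-5p) with counts summed over hairpins, -0.018 without p53+/+ libraries 1 and 2 and -0.028 without the 3 shallowest. With 1 library left out it ran from -0.14 to 0.14. The causes were not tested.

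Summed levels were 159 CPM in p53+/+ and 185 in p53-/- libraries with miR-122-5p out of the denominator, 184.6 and 201.1 with counts summed over hairpins, and 41.9 and 55.7 without miR-466i-5p, whose omission took the difference from 4.97 to 13.8 CPM. With 1 library left out, the means ran from 60.3 to 81.0 and from 70.1 to 81.8 CPM, and their difference from -3.17 to 18.003. Names with at least 3 reads numbered 13.4 and 22.5 per library, and with at least 10 reads 5.4 and 8.83. DESeq2 called 17 miRNAs where edgeR called 1. Counting names of the same mature sequence once was not run, since sequences were matched for 8 names; names of identical counts were taken once instead, chosen after seeing the data. Depth limits many members: 26 of the 60 detected had fewer than 10 reads over all libraries.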
